A study of Homo sapiens with 8 samples.

Results

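The genes described here are 3 hormone receptors, 4 transcription factors and 2 ERBB receptor kinases that mark luminal breast cells: ESR1, PGR, PRLR, FOXA1, GATA3, TFAP2C, SPDEF, ERBB2 and ERBB3. They were found by gene symbol in the probe annotation of the array, and every probe set of a gene was kept apart. A probe set is the group of short oligonucleotides that reports 1 transcript region. They are 9 of the 18417 genes that have a probe set of their own, and hold 10 of the 33297 probe sets of the array, because ESR1 has 2 and each other gene has 1.

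RNA came from T47D, an established line of human breast carcinoma. All cells carried a lentivirus, and the groups differ in its hairpin RNA and in doxycycline, the drug that switches the hairpin on. The Scr day 0 group held the control hairpin and no doxycycline, and the Scr day 2 group held the control hairpin after 48 h of doxycycline (1 ug/ml). The EglN2 shRNA day 0 group held the hairpin against EglN2 without doxycycline, and the EglN2 shRNA day 2 group held it after 48 h of the drug. Each group was measured on 2 arrays, 8 in all. The labels do not say whether a line is a clone or a pool of infected cells, nor whether replicates were separate cultures, so a p-value here measures only the spread between these arrays. Lines and days were measured on whole cultures, so fewer cells expressing a gene and less RNA per cell cannot be told apart. EglN2 is an enzyme that hydroxylates prolines and takes part in oxygen sensing.

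Luminal cells line the ducts of the breast, and their carcinomas usually keep the estrogen receptor, which ESR1 encodes. That receptor is a transcription factor that binds DNA when it holds estrogen; FOXA1 opens chromatin for it, GATA3 works beside both, and PGR, the progesterone receptor gene, is a classical target. PRLR is the receptor of prolactin, which signals through JAK2 and STAT5, and ERBB2 and ERBB3 pair with each other at the cell surface, where ERBB3 binds neuregulins and ERBB2 supplies most of the kinase activity.

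Promoter sequence was taken from RefSeq (GRCh38.p14) in windows from 250 bases before to 50 bases after a start site. Windows were matched for 7 of the 9 genes, 20 in all, since several genes have more than 1 start. TFAP2C encodes AP-2 gamma, whose family binds the letters GCCNNNGGC, and regulation of ERBB2 by AP-2 factors is a textbook case. For that reason the upstream bases of ERBB2 are printed beside those of GATA3, a member with the letters, in which they stand in capitals. Both are on the plus strand and end at the base before a start, at chr10:8045083-8045332 for GATA3 and chr17:39687844-39688093 for ERBB2. The GATA3 start is the most upstream of the 6 with a window, and ERBB2 had 1 window only.
GATA3: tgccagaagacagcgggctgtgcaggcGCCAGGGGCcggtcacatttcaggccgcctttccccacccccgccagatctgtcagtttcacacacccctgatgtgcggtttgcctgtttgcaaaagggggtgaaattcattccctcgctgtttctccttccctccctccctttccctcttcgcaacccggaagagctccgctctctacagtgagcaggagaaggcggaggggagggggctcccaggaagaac
ERBB2: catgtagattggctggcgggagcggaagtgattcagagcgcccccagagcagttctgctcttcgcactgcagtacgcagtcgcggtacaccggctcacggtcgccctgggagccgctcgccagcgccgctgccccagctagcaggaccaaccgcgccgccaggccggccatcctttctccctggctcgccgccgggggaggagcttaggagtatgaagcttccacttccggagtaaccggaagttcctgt
In GATA3 the match began 223 bases before that start, and in ERBB2 this window held none. Whether this ERBB2 start is the one where AP-2 regulation was described was not checked, so the empty window does not bear on it. Of the 20 windows 5 held the letters, 3 of GATA3 and 2 of PGR, against 23.2% of 35116 RefSeq windows of the same length, and windows of 1 gene can overlap. The letters read the same on both strands. The other motifs searched, on both strands, were the estrogen response element (GGTCA and TGACC with any 3 bases between), the forkhead letters TGTTTAC and the GATA letters AGATAA. None was found in the 20 windows, and 0.057%, 3.42% and 10.3% of all windows held them. No match of one of the 4 motifs can hold another in full. A match is a description of the letters, and no binding was measured.

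Values are log2 levels after robust multi-array averaging (RMA), a method that corrects background, equalises arrays and summarises each probe set. Replicate arrays correlated at 0.9921 to 0.9965 over named probe sets, and array medians lay between 7.81 and 7.86. The target of the hairpin checked the labels. EGLN2 read 8.97 and 9.0 in Scr day 0, 8.81 and 8.90 in Scr day 2, 8.85 and 9.04 in EglN2 shRNA day 0 and 8.26 and 8.29 in EglN2 shRNA day 2. The last pair was below all 6 other arrays, and over days EGLN2 differed by -0.67 in its own line (SE 0.11, limma adjusted p = 0.134), short of the threshold. Its probe set also covers the read-through transcript RAB4B-EGLN2.

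The label of luminal cells was set against 3 lists of markers by counting genes above the median of the table. Of 27 luminal epithelial markers, 23 were above it in each of the 4 groups. Of 22 basal and mesenchymal markers 6 to 8 were above it, and of 24 leukocyte, endothelial and fibroblast markers 1 or 2. PTPRC, the marker of all leukocytes, read between 4.14 and 4.35 on the 8 arrays. ACTA2, smooth muscle actin, stood apart among basal markers with 12.72 to 13.33 on the 4 arrays numbered 1 and 10.80 to 12.43 on the 4 numbered 2. Its part in the values below was not tested.

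**Figure D1:**
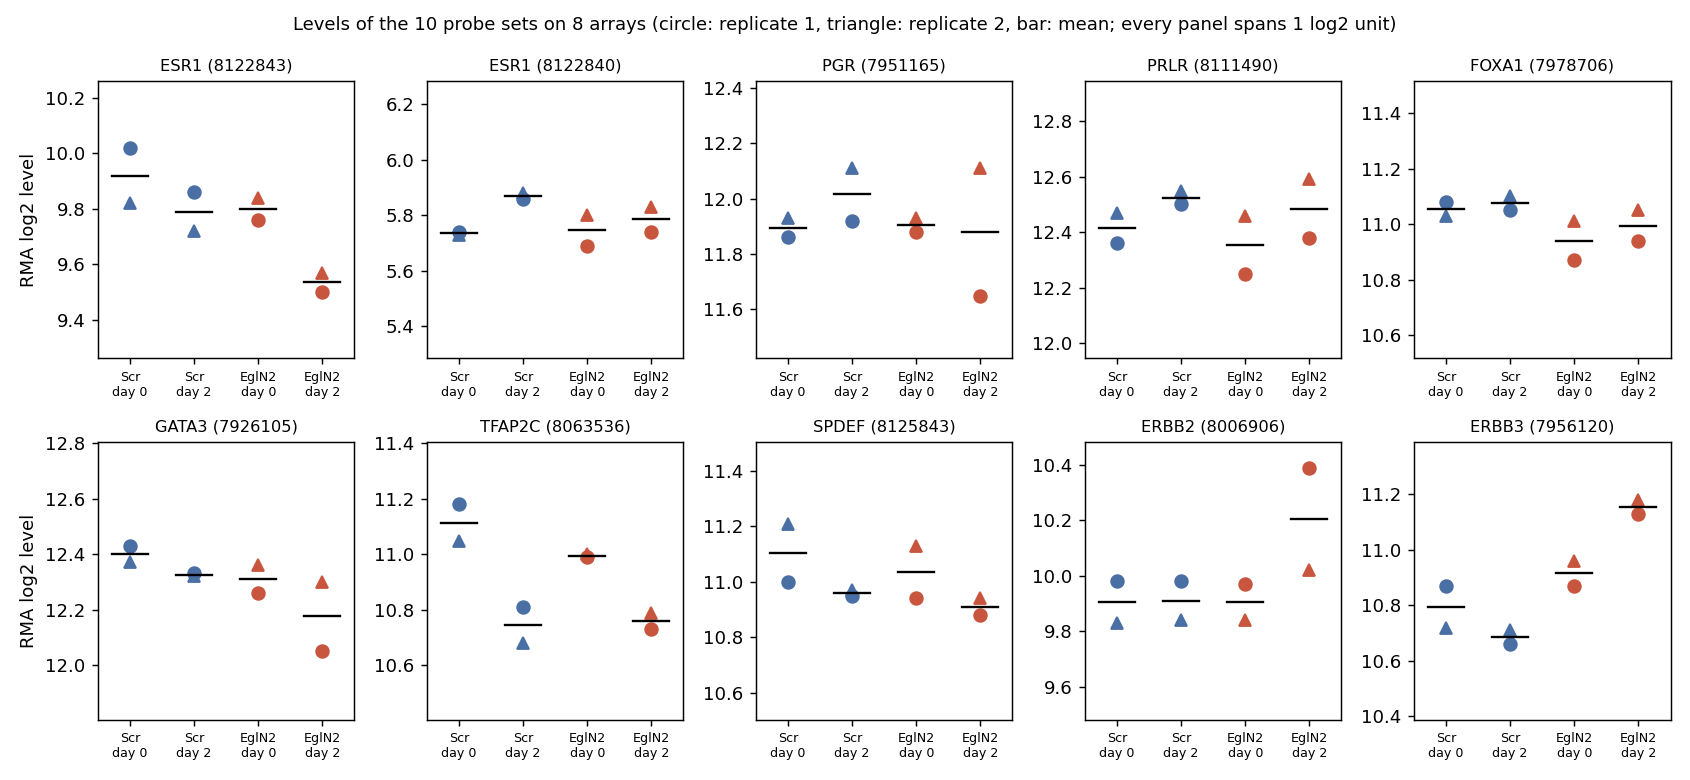
RMA log2 level (vertical axis) of each of the 10 probe sets in the 4 groups of line and day; circles are replicate 1, triangles replicate 2, bars the mean of both, and every panel spans 1 log2 unit. ERBB3 is highest on the EglN2 shRNA day 2 arrays (11.13 and 11.18), and TFAP2C is lower on all 4 day 2 arrays (10.68 to 10.81) than on all 4 day 0 arrays (10.99 to 11.18).

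ESR1, the estrogen receptor gene, was described by probe set 8122843, which the annotation pairs with 20 transcript records, and by probe set 8122840, paired with 1. Probe set 8122843 read 10.02 and 9.82 in Scr day 0, 9.86 and 9.72 in Scr day 2, 9.76 and 9.84 in EglN2 shRNA day 0, and 9.50 and 9.57 in EglN2 shRNA day 2. The EglN2 shRNA day 2 arrays were the lowest 2 of the 8. From the highest mean to the lowest the order was Scr day 0, EglN2 shRNA day 0, Scr day 2 and EglN2 shRNA day 2, and only the last group did not overlap with its neighbour. In the EglN2 shRNA line the day 2 minus day 0 difference was -0.27 (SE 0.11, 95% CI -0.52 to -0.01, limma adjusted p = 0.835), against -0.13 in the Scr line. The adjusted value does not pass 0.05. Between the lines at day 2 the difference was -0.26 (SE 0.11, limma adjusted p = 0.960), a comparison that shares the EglN2 shRNA day 2 arrays with the change over days.

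Probe set 8122840 of ESR1 did not follow the first, but it was dim. Its mean over the 8 arrays was 5.78, below the table median of 7.84, against 9.76 for probe set 8122843. Its differences are thus a weak check on those of the first. It read 5.74 and 5.73 in Scr day 0, 5.86 and 5.88 in Scr day 2, 5.69 and 5.80 in EglN2 shRNA day 0, and 5.74 and 5.83 in EglN2 shRNA day 2. Its whole range was 0.19, the smallest of the 10 probe sets, and its day differences were 0.14 in the Scr line and 0.04 in the EglN2 shRNA line, opposite in sign to those of probe set 8122843. Its 1 transcript record is not from RefSeq, and which ESR1 transcript it reports is not given in the sources used here.

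PGR, the progesterone receptor gene, read 11.86 and 11.93 in Scr day 0, 11.92 and 12.11 in Scr day 2, 11.88 and 11.93 in EglN2 shRNA day 0, and 11.65 and 12.11 in EglN2 shRNA day 2. The EglN2 shRNA day 2 pair held both the lowest value and a value tied for the highest of the 8 arrays. The day difference in that line was -0.03 (SE 0.15), and it was 0.21 without replicate 1 of EglN2 shRNA day 2 and -0.26 without replicate 2. In the Scr line it was 0.12. All neighbouring groups in the order of means overlapped.

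PRLR, the prolactin receptor gene, read 12.36 and 12.47 in Scr day 0, 12.50 and 12.55 in Scr day 2, 12.25 and 12.46 in EglN2 shRNA day 0, and 12.38 and 12.59 in EglN2 shRNA day 2. Day 2 means were above day 0 means in both lines, by 0.11 in Scr and 0.13 in EglN2 shRNA. From one group to the next in the order of means all neighbours overlapped, from Scr day 2 over EglN2 shRNA day 2 and Scr day 0 to EglN2 shRNA day 0. Neither difference passed the test (limma adjusted p over all 7 comparisons between 0.649 and 0.995).

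Among the transcription factors, FOXA1, the pioneer factor of the estrogen receptor, varied least. It read 11.08 and 11.03 in Scr day 0, 11.05 and 11.10 in Scr day 2, 10.87 and 11.01 in EglN2 shRNA day 0, and 10.94 and 11.05 in EglN2 shRNA day 2. Its day differences were 0.02 in the Scr line and 0.06 in the EglN2 shRNA line. At day 0 the EglN2 shRNA arrays lay below the Scr arrays by 0.12 without overlap, and at day 2 the lines overlapped. In the order of means every group overlapped with the next.

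GATA3 encodes a zinc finger factor that luminal cells need to differentiate. It read 12.43 and 12.37 in Scr day 0, 12.33 and 12.32 in Scr day 2, 12.26 and 12.36 in EglN2 shRNA day 0, and 12.05 and 12.30 in EglN2 shRNA day 2. In the order of means, which is the order given, Scr day 0 stood clear of Scr day 2 and the later neighbours overlapped. The difference over days was -0.08 in the Scr line and -0.14 in the EglN2 shRNA line. The latter was -0.01 without replicate 1 of EglN2 shRNA day 2, the lowest array, and -0.26 without replicate 2.

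TFAP2C, AP-2 gamma, read 11.18 and 11.05 in Scr day 0 and 10.81 and 10.68 in Scr day 2. The EglN2 shRNA arrays gave 10.99 and 11.00 without doxycycline, against 10.73 and 10.79 with it. Every day 2 array was below every day 0 array, in both lines. The difference was -0.37 in the Scr line (SE 0.10, 95% CI -0.60 to -0.14, limma adjusted p = 0.266) and -0.24 in the EglN2 shRNA line (SE 0.10, limma adjusted p = 0.863). Averaged over both lines it was -0.30 (SE 0.07, 95% CI -0.47 to -0.14, limma adjusted p = 0.198), short of the threshold. The p of TFAP2C ranked 256 among the 21214 tested, and 1.20% were smaller. Over the alternatives tried the mean difference stayed between -0.34 and -0.27, with adjusted p from 0.0933 to 0.665. From the highest mean to the lowest the order was Scr day 0, the 2 EglN2 shRNA groups with day 0 first, and Scr day 2, and only the last neighbours overlapped. The difference of the day changes between the lines was 0.14 and did not pass (SE 0.15, 95% CI -0.20 to 0.47).

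SPDEF, an ETS family factor of secretory luminal cells, read 11.00 and 11.21 in Scr day 0, 10.95 and 10.97 in Scr day 2, 10.94 and 11.13 in EglN2 shRNA day 0, and 10.88 and 10.94 in EglN2 shRNA day 2. Day 2 means were lower by 0.15 in Scr and by 0.13 in EglN2 shRNA. The Scr groups did not overlap, and the EglN2 shRNA groups met at 10.94. In the order of means (Scr day 0, EglN2 shRNA day 0, Scr day 2, EglN2 shRNA day 2) only the last neighbours did not overlap, by 0.01. Neither difference passed the test.

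**Figure D2:**
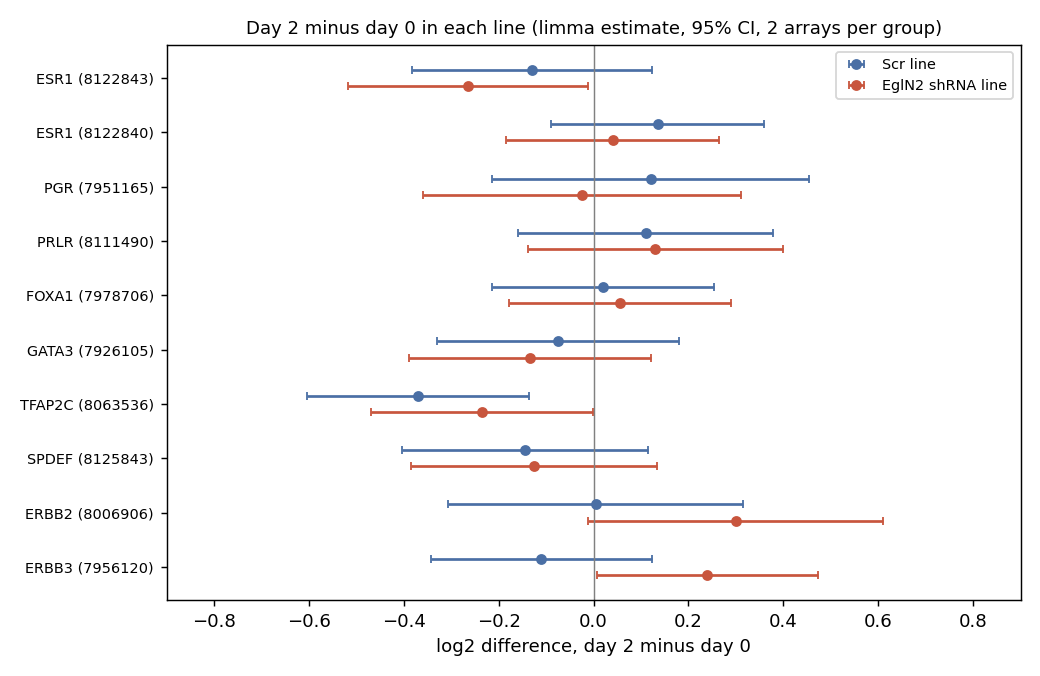
Day 2 minus day 0 difference (horizontal axis, log2) of each probe set in the Scr line (blue) and the EglN2 shRNA line (red); points are limma estimates from 2 arrays per group and bars their 95% confidence intervals. TFAP2C lies left of 0 in both lines (-0.37 and -0.24), while ERBB3 lies at -0.11 in the Scr line and 0.24 in the EglN2 shRNA line.

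ERBB2, the kinase also called HER2, read 9.98 and 9.83 in Scr day 0, 9.98 and 9.84 in Scr day 2, 9.97 and 9.84 in EglN2 shRNA day 0, and 10.39 and 10.02 in EglN2 shRNA day 2. Only the EglN2 shRNA day 2 arrays were above 10, and the other 3 groups had means within 0.01 of each other. The difference over days in the EglN2 shRNA line was 0.30 (SE 0.14, 95% CI -0.01 to 0.61, limma adjusted p = 0.879), and it was 0.01 in the Scr line. A single array weighed on it: without replicate 1 of EglN2 shRNA day 2 the value was 0.12, and without replicate 2 it was 0.49.

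Genes beside ERBB2 in the RefSeq order of chromosome 17 are often amplified with it in breast carcinoma, so their values are given for the same change. In that order STARD3, a cholesterol carrier, differed by -0.24, TCAP by -0.02, PNMT by -0.07 and PGAP3 by -0.06. On the other side MIEN1 differed by -0.07, GRB7, an adaptor of ERBB receptors, by 0.30, IKZF3 by 0.16 and ZPBP2 by 0.03. The 4 neighbours before ERBB2 and MIEN1 were thus below 0 and the 3 after MIEN1 above 0, and none passed the test.

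ERBB3 read 10.87 and 10.72 in Scr day 0, 10.66 and 10.71 in Scr day 2, 10.87 and 10.96 in EglN2 shRNA day 0, and 11.13 and 11.18 in EglN2 shRNA day 2. The last pair was the highest of the 8 arrays. The order of means had the EglN2 shRNA groups first, with day 2 above day 0, then Scr day 0 and Scr day 2, with no overlap between the first group and its neighbour, a shared value of 10.87 between the next groups, and a gap of 0.01 between the last ones. At day 2 the EglN2 shRNA line was above the Scr line by 0.47 (SE 0.10, 95% CI 0.24 to 0.70, 1.39-fold, limma adjusted p = 0.305). The p of ERBB3 ranked 87 among the 21214 tested, 0.405% were smaller, and the adjusted value missed the threshold. The alternatives gave 0.45 to 0.50, with adjusted p from 0.119 to 0.997.

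Other comparisons that share these arrays gave smaller values for ERBB3. Over days the difference was 0.24 in the EglN2 shRNA line (SE 0.10, limma adjusted p = 0.846) and -0.11 in the Scr line, and at day 0 the lines differed by 0.12. The difference of the day changes was 0.35 (SE 0.15, 95% CI 0.02 to 0.68, limma adjusted p = 0.694). Averaged over both days the EglN2 shRNA line was above Scr by 0.30 (SE 0.07, limma adjusted p = 0.367).

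**Figure D3:**
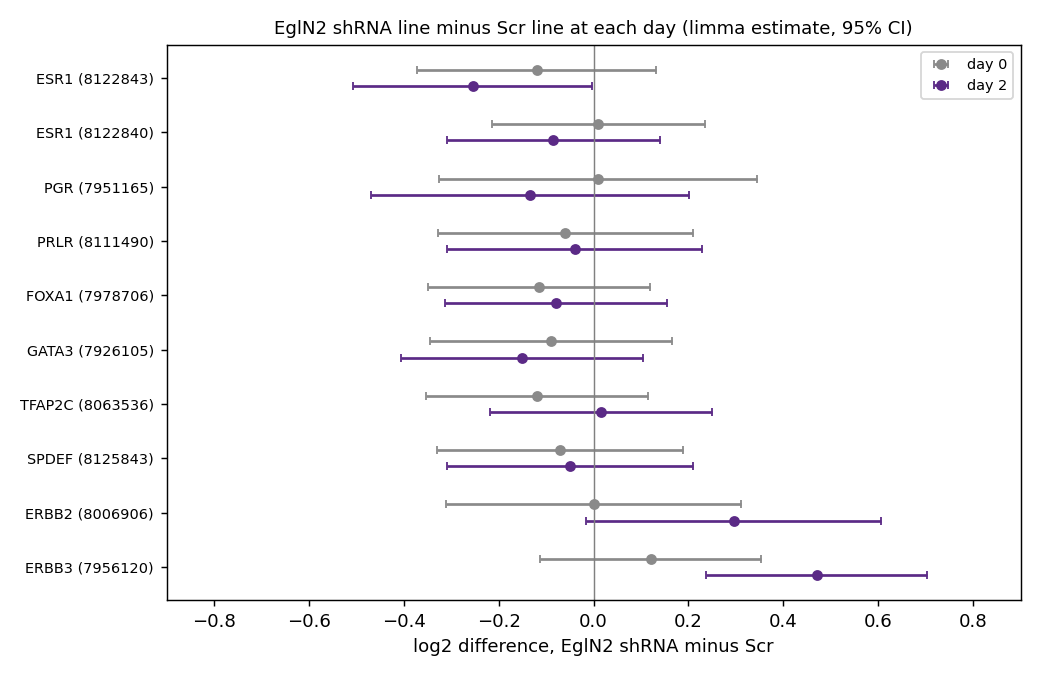
EglN2 shRNA line minus Scr line (horizontal axis, log2) for each probe set at day 0 (grey) and day 2 (purple); points are limma estimates from 2 arrays per group and bars their 95% confidence intervals. At day 2 ERBB3 lies farthest from 0 at 0.47, ERBB2 lies at 0.30 and ESR1 (8122843) at -0.26; at day 0 every estimate lies between -0.12 and 0.12.

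No member passed an adjusted p of 0.05 by limma in any of the 7 comparisons, and the background was low. In the EglN2 shRNA line over days 0.00943% of the 21214 named probe sets passed, between the lines at day 2 0.0754%, in the mean day difference of both lines 0.141% and in the mean line difference of both days 0.033%. In the Scr line, at day 0 and in the difference of the day changes 0% passed. So members at 0 of 10 were near the background in all 7. No other tool was run.

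At an unadjusted limma p under 0.05, the EglN2 shRNA line over days held 3 of 10 members (ESR1 by 8122843, TFAP2C and ERBB3) against 5.77% of all. The Scr line held 1 (TFAP2C) against 12.9%, and the difference of the day changes 1 (ERBB3) against 7.12%. Between the lines, day 0 held 0 against 10.4% and day 2 held 2 (ESR1 by 8122843 and ERBB3) against 5.19%. The mean day difference held 2 (ESR1 by 8122843 and TFAP2C) against 10.7%, and the mean line difference 2 (ESR1 by 8122843 and ERBB3) against 8.07%. These comparisons share arrays, so the same deviating array counts in several of them.

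Groups of 2 arrays often do not overlap, and the members were read against that. In the EglN2 shRNA line over days 4 of 10 members did not overlap against 30.7% of all, and in the Scr line 6 of 10 against 47.8%. Between the lines the counts were 3 of 10 against 45% at day 0 and 6 of 10 against 30.4% at day 2. The 4 changes that 2 arrays by 2 arrays allow in each line were apart for 1 of 10 (ERBB3) against 20.5%. With 4 arrays a side, 1 of 10 (TFAP2C) did not overlap between days against 5.09%, and 0 of 10 between lines against 3.51%.

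The intervals give limits of a difference from the spread between these arrays only. The farthest bound of a 95% interval among the members was 1.53-fold in the EglN2 shRNA line over days (ERBB2), 1.52-fold in the Scr line (TFAP2C), 1.29-fold between lines at day 0 (ESR1) and 1.63-fold at day 2 (ERBB3). In the difference of the day changes it was 1.66-fold (ERBB2). These are limits of single genes that no adjustment for many genes has widened. RMA values of dim or saturated probe sets understate a fold.

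**Figure D4:**
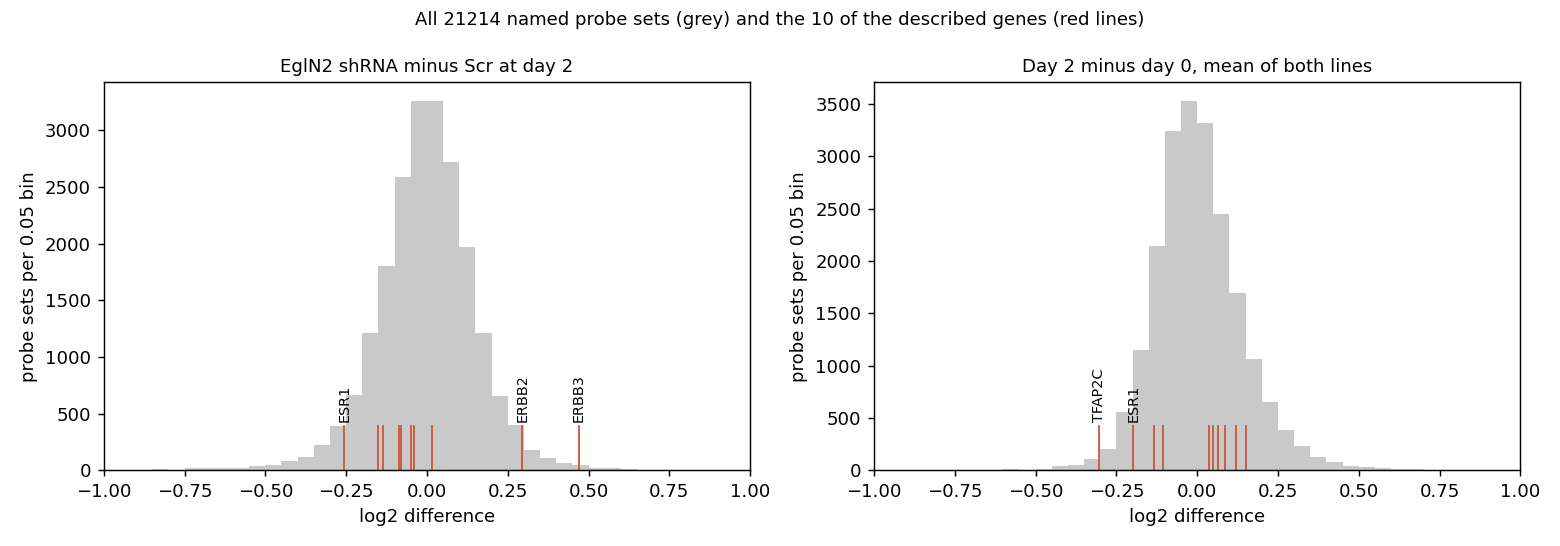
Number of named probe sets (vertical axis) by log2 difference (horizontal axis, bins of 0.05) between the lines at day 2 (left) and between days averaged over both lines (right); grey bars are all 21214 probe sets and red lines the 10 of the described genes. ERBB3 at 0.47 lies in the right tail on the left and TFAP2C at -0.30 in the left tail on the right, while most members lie in the body.

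The arrays differed in how often they held a member's extreme. Replicate 1 of EglN2 shRNA day 2 was the lowest of the 8 arrays for 4 of 10 members (ESR1 by 8122843, PGR, GATA3 and SPDEF) and the highest for ERBB2. Over all named probe sets it was lowest for 11.1% and highest for 15.7%. Replicate 1 of Scr day 0 held the most extremes over all named probe sets (lowest for 19.1%, highest for 20.9%) and was the highest array for 3 members, ESR1 by 8122843, GATA3 and TFAP2C. Replicate 1 of EglN2 shRNA day 0 was the lowest for ESR1 by 8122840, PRLR and FOXA1, and replicate 2 of EglN2 shRNA day 2 was lowest for 18% of all and for no member. The replicates of that group differed by a median of 0.16, the widest of the 4 groups, against 0.10 in Scr day 2. The PGR, GATA3 and ERBB2 values without its replicate 1 are given above.

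Genes around the members were read from 6 lists, with the probe set of highest mean for each gene. Of 30 genes listed with the nuclear hormone receptors none passed the adjusted test in any of the 7 comparisons. Among them GPER1 and PGRMC2 are membrane proteins and not nuclear receptors. NR5A2, an orphan receptor, read 6.53 and 6.42 in Scr day 2 and 5.88 and 5.86 in EglN2 shRNA day 2, a difference of -0.61 between the lines (SE 0.13, limma adjusted p = 0.271). NR1D2, a receptor of the circadian clock, read 8.83 and 8.75 in Scr day 0 and 9.40 and 9.52 in Scr day 2, while EglN2 shRNA read 9.31 and 9.35 at day 0. Its lines thus differed by 0.54 before doxycycline (SE 0.13, limma adjusted p = 0.455). The median of the list was 0.06 for the mean day difference and 0.02 for the lines at day 2, against -0.01 and 0.01 for all 18417 genes.

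Of 29 targets of the estrogen and progesterone receptors, 2 passed in 1 comparison, the mean day difference of both lines, and both rose. In that comparison 30 of all 21214 named probe sets passed (0.141%), 25 of them higher. The list was chosen with earlier results of these data known, so 2 of 29 cannot be weighed against that share. Whether the receptors had a part in the 2 rises was not tested. SERPINA1, which encodes a protease inhibitor, rose by 0.74 (SE 0.08, limma adjusted p = 0.0248). It read 8.84 and 9.04 in Scr day 0, 9.67 and 9.61 in Scr day 2, 9.28 and 9.14 in EglN2 shRNA day 0, and 10.07 and 9.89 in EglN2 shRNA day 2. STC2, a secreted glycoprotein gene, rose by 0.60 (SE 0.09, limma adjusted p = 0.0392), from 10.43 and 10.22 to 10.89 and 10.81 in Scr and from 10.54 and 10.43 to 11.28 and 11.05 in EglN2 shRNA. Both genes were higher on the day 2 arrays in each line. SERPINA1 missed the threshold without any 1 of the Scr or EglN2 shRNA day 0 arrays (limma adjusted p 0.0692 to 0.157) and passed without either EglN2 shRNA day 2 array (0.0430 and 0.0415). STC2 missed it without any 1 of the 8 arrays (0.0640 to 0.229). With all probe sets of the array tested, named or not, the adjusted p was 0.171 and 0.239.

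TFF1, the trefoil peptide gene long used as a readout of estrogen, differed the other way by -0.60 (SE 0.10, limma adjusted p = 0.0666) and SLC7A5, an amino acid transporter gene, by -0.43 (limma adjusted p = 0.108). Neither passed. In the list 17 genes were positive and 12 negative, with a median of 0.02 against -0.01 for all genes, and 47.7% of all genes were positive. GREB1, another classical target, read between 10.39 and 10.79 on the 8 arrays.

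Of 28 ERBB receptors, ligands and regulators none passed in any comparison. TGFA, a ligand of the EGF receptor, read 8.34 and 8.43 in Scr day 2 and 7.73 and 7.91 in EglN2 shRNA day 2, a difference of -0.57 (SE 0.11, limma adjusted p = 0.162), and the day 0 arrays lay between 8.11 and 8.25. EGFR was higher at day 2 in the mean of both lines by 0.29 (limma adjusted p = 0.305), without passing. Between the lines at day 2, 7 genes were positive and 21 negative, and 50.6% of all genes were positive. The median was -0.08 against 0.01 for all genes, and the member ERBB3 lay at 0.47. Many of the 28 were dim, since only 16 were above the table median in Scr day 2 and 15 in EglN2 shRNA day 2. The list also holds STARD3, PGAP3 and MIEN1, entered as neighbours of ERBB2. They were among the negative genes (-0.43, -0.04 and -0.085), and the neighbour GRB7 lay at 0.095. NRG1 and NRG2 both encode ligands of ERBB3. NRG1 read between 5.78 and 6.27, and NRG2 between 8.07 and 8.34.

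The other lists gave no adjusted call in the 7 comparisons. In prolactin receptor signalling (23 genes) the median was 0.01 for the EglN2 shRNA line over days, and STAT5B, a transducer of the prolactin receptor, differed by 0.18 in the mean of both lines (limma adjusted p = 0.409). Among 30 receptor coregulators TLE1, a corepressor, differed by -0.38 (limma adjusted p = 0.316). Among 29 other luminal transcription factors TBX3 differed by -0.19 and EHF by 0.32, and TFAP2A, the paralog of TFAP2C, read 9.97 and 9.84 in Scr day 0 and 9.50 and 9.63 in Scr day 2. The EglN2 shRNA arrays of TFAP2A overlapped, with 9.62 and 9.86 before and 9.38 and 9.79 after doxycycline. Of the 27 luminal, 22 basal and mesenchymal, and 24 leukocyte, endothelial and fibroblast markers none passed in any of the 7 comparisons. The luminal marker KRT7, a keratin gene, differed by -0.44 in the mean of both lines (limma adjusted p = 0.147). SCUBE2, another luminal marker, read 9.47 and 8.70 in Scr day 0, 9.98 and 9.54 in Scr day 2, 9.48 and 8.76 in EglN2 shRNA day 0, and 9.81 and 9.41 in EglN2 shRNA day 2, a mean difference of 0.58 (SE 0.21, limma adjusted p = 0.387).

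Members were compared over the 8 arrays as a description, with no test, since 8 arrays of 4 groups share lines and days. ESR1 (8122843) had a Pearson r of 0.831 with GATA3, 0.757 with TFAP2C, 0.480 with SPDEF, 0.342 with FOXA1 and 0.072 with PGR. With PRLR, ERBB2 and ERBB3 its r was -0.224, -0.610 and -0.637. GATA3 had -0.854 with ERBB2, and ERBB2 had 0.614 with ERBB3. Other pairs of the 9 genes are not listed here. Replicate 1 of EglN2 shRNA day 2 was the lowest array for ESR1 (9.50) and GATA3 (12.05) and the highest for ERBB2 (10.39). A single array can set an r over 8 arrays, and r without that array was not computed. Among about 6530 probe sets with a mean of at least 6 and an SD of at least 0.15, those most like a member were FCRL6 for ESR1 (r = 0.960), MYCBP2 for PGR (r = 0.978), KIF13B for PRLR (r = 0.956), ZSWIM8 for FOXA1 (r = 0.929), GPR158 for GATA3 (r = 0.976) and ZNRF4 for TFAP2C (r = 0.982). PIP4K2A was most like SPDEF (r = 0.975), MSX2 most like ERBB2 (r = 0.952) and IPPK most like ERBB3 (r = 0.931). Values this high were reached by picking the best of so many candidates over 8 arrays.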

How the data were processed

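Total RNA of 8 T47D samples was labelled and hybridised to Affymetrix arrays, 1 array each. The deposited values are log2 levels; the submitters' processing notes name RMA and Affymetrix Expression Console, without versions. Settings and genome build are not stated in those notes. RMA equalises arrays, which can mask a change shared by most genes.

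Of 33297 probe sets, the platform annotation gives 19460 a single gene, 1754 several and 12083 none. The 21214 named ones were tested. Single names were updated through RefSeq (19429 matched, 31 kept as given). The model held 1 mean for each of the 4 groups over the 8 arrays; limma 3.58.1 under R 4.3.3 was used (4 residual and 5.53 prior degrees of freedom), for 7 comparisons. Tests are two-sided, with Benjamini-Hochberg adjustment over 21214 probe sets in each comparison, not over comparisons, and a threshold of 0.05. All members are named in every comparison, and of each list up to 4 genes with the smallest p. Members, lists and tests were chosen with earlier results of these data known. GREB1, NRG1, NRG2, PGRMC2, TFAP2A, ACTA2, PTPRC and the neighbours of ERBB2 were named outside that rule, after their values were seen. Lists come from general knowledge. The fit was tested on simulated data.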

Additional observations from a re-analysis of the deposited data

Results flagged for a closer look

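ERBB3 was the only member whose change over days ran in opposite directions in the lines on every array pair: all 4 possible changes were positive in the EglN2 shRNA line (mean 0.24) and all 4 negative in the Scr line (mean -0.11). The difference of the changes was 0.35 on the log2 scale (SE 0.15, limma adjusted p = 0.694), so it did not pass the test. The smallest gap in the Scr line was 0.01, between 10.72 at day 0 and 10.71 at day 2. Such separation of the lines' changes, without regard to sign, was found for 20.5% of all named probe sets. No group has 4 or more arrays, so single arrays could not be tested as outliers.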

How the results depend on the processing

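No member passed the threshold under any of the 15 settings. Of 1013 values of members under alternatives, 995 stayed within 1 SD of the value reported and 18 moved, all in PGR, GATA3 and ERBB2 without 1 array of EglN2 shRNA day 2; 47 changed sign or moved off 0, none of them called. The 2 arrays per group limit the precision: the median SE of a difference between groups was 0.12.

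The number of probe sets called over the whole array depended on the setting. In the EglN2 shRNA line over days (2 called) it was 0 with all probe sets of the table or only the arrays compared, and 0 to 2 with 1 array left out. In the Scr line (0 called) it was 6 with a prior variance following intensity. In the difference of the day changes (0 called) it was 2 with that prior. Between lines at day 2 (16 called) it was 0 with all probe sets or only the arrays compared, 26 with that prior, and 0 to 15 with 1 array left out. In the mean day difference (30 called) it was 0 with all probe sets, 76 with that prior, and 0 to 20 with 1 array left out. In the mean line difference (7 called) it was 0 with all probe sets, 11 with a mean of at least 6, 13 after quantile normalization, 4 with centred arrays, 14 with that prior, and 0 to 6 with 1 array left out. The cause was not tested.

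Replicate numbers are shared between groups, but with 2 numbers they are not shown to pair the arrays; their deviations correlated at 0.0981 to 0.271. With the replicate block 13 probe sets were called in the EglN2 shRNA line, 42 in the Scr line, 32 between lines at day 2, 150 in the mean day difference and 18 in the mean line difference, none of them a member. With the block the adjusted p was 0.186 for ERBB3 at day 2 and 0.113 for TFAP2C in the mean day difference. In the mean day difference TFF1, SLC7A5, KRT7, SCUBE2 and EGLN2 passed with the block (adjusted p 0.0204, 0.0415, 0.0415, 0.0276 and 0.0458), and TFF1 and SLC7A5 with the prior following intensity (0.0454 and 0.0418), while STC2 missed after quantile normalization (0.0640).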
